A study of Mus musculus with 8 samples.

Results

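The clustered protocadherins are a family of cell-surface adhesion proteins encoded in tandem on mouse chromosome 18. Members were taken from the mm9 annotation (GENCODE release M1) as the protein-coding genes with a symbol of the Pcdha, Pcdhb or Pcdhg series, which gave 24 of 22367 protein-coding genes. Together they hold 40 variable exons, the long first exons that each encode the extracellular domain of 1 protein: 10 in the alpha cluster (chr18:37089939-37347311), 21 in the beta cluster (chr18:37424652-37681073) and 9 in the gamma cluster (chr18:37833989-38001527). The annotation lists 21 separate beta genes, Pcdhb1 to Pcdhb19, Pcdhb21 and Pcdhb22. It merges all but 1 of the alpha exons under the symbol Pcdha11 (ENSMUSG00000007440.7), the exception being Pcdha3, and all of the gamma exons under Pcdhgc5 (ENSMUSG00000023036.7). Alpha and gamma exons are therefore named here by their transcript, such as Pcdha11-204, and such a name stands for a first exon of the cluster and not for the protein of that symbol.

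Protocadherins of these clusters are known best from the nervous system, where each neuron expresses its own combination of isoforms and the proteins bind like to like between cells. In the alpha and gamma clusters each variable exon has its own promoter and is spliced to constant exons at the 3′ end of the cluster, whereas a beta gene is a single coding exon. Promoter choice in the clusters is known to depend on DNA methylation and on CTCF, and 5-hydroxymethylcytosine (5hmC) is the base that Tet enzymes make from methylated cytosine.

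The study mapped 5hmC by GLIB-Seq, in which 5hmC is glucosylated, oxidised and tagged with biotin so that fragments carrying it can be pulled down and sequenced. It asked how 5hmC differs between embryonic stem cells (ESCs) and differentiated cells, and how it depends on Suz12, a subunit of the Polycomb repressive complex PRC2. There was 1 library for each of 6 conditions: E14 mouse ESCs, mouse embryonic fibroblasts (MEFs) of C57BL/6 embryos, brain and liver of adult C57BL/6 mice aged 8 weeks, and E14 ESCs transfected with a control hairpin (shGFP, directed at GFP) or one directed at Suz12 (shSuz12), then kept in 1 µg/ml puromycin for 3 days of selection. The embryonic day of the MEFs is 11 in the sample labels and differs from that in the methods, and the sex of the animals, any pooling and the Suz12 hairpin are not named in the labels. With 1 library per condition no difference between conditions could be tested, and every value below describes these libraries. The lists hold no expression values, so the labelled cell types were not checked against marker genes. The level of Suz12 was not checked either, since RNA-Seq of these cells was not analysed here.

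The files were peak lists with 130408 to 217025 peaks, which covered 3.15% to 7.83% of the reference genome and 2.71% to 8.89% of chromosome 18. Read depth is unknown. Each peak has a score from the peak caller MACS, which is a p-value on a negative log10 scale multiplied by 10, and the lists stopped at different scores: 80 in ESCs and liver, 50.02 in shGFP, 30.34 in shSuz12 and 30 in MEFs and brain. The MEF and brain lists admitted weaker peaks than the ESC list did.

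In ESCs nearly every variable exon of all 3 clusters carried a 5hmC peak, whereas in MEFs, brain and liver few did. A peak (at least 1 bp) lay on 38 of the 40 variable exons in the ESC library (95% interval 83.1 to 99.4%), 5 in brain (4.19 to 26.8%), 2 in MEFs (0.611 to 16.9%) and 1 in liver (0.0633 to 13.2%). These exact (Clopper-Pearson) intervals and those below cover counting error only, and neighbouring exons are not independent. The exons with a peak in ESCs were all 10 of the alpha cluster, 19 of 21 of the beta cluster and all 9 of the gamma cluster. In MEFs and liver they lay in the gamma cluster, and in brain 2 lay in the alpha and 3 in the gamma cluster. No exon carried a peak in all 6 libraries, and each of the 40 carried a peak in at least 1.

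Other long exons did not show this split. Among the 478 coding exon segments of 2 to 3 kb outside the clusters, the share with a peak was 59.4% in ESCs, 54.6% in brain, 42.3% in liver and 37.2% in MEFs, and the knockdown libraries had 47.3% (shSuz12) and 49.6% (shGFP). Among all 4265 protein-coding exons of 2 to 3 kb, untranslated ones included, it was 54.8% in ESCs, 49.6% in brain, 43.4% in liver, 42.3% in shGFP, 40.3% in shSuz12 and 37.1% in MEFs. First exons of any length carried a peak less often, at 16.6% in ESCs, 14.9% in shGFP, 11.2% in MEFs, 10.3% in liver, 9.38% in shSuz12 and 8.85% in brain. The variable exons were thus above each of these shares in the ESC library and below those of the long exons in MEFs, brain and liver.

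**Figure D1:**
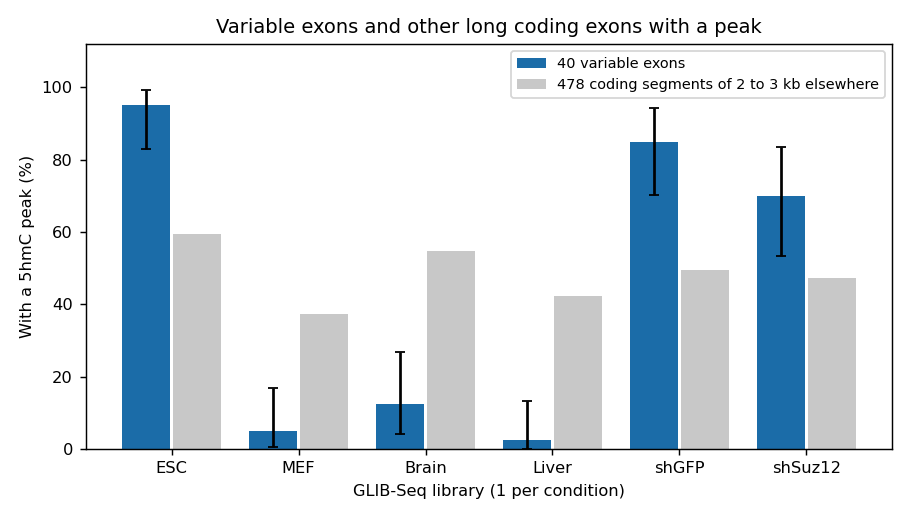
Percentage of the 40 variable exons (blue, with exact 95% intervals) and of 478 coding exon segments of 2 to 3 kb elsewhere (grey) with a 5hmC peak in each of the 6 GLIB-Seq libraries. The variable exons stand at 95% in ESCs and at 2.5% to 12.5% in MEFs, brain and liver, while the other segments stand between 37.2% and 59.4% throughout.

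The bp under peaks gave the same order. Peaks covered 43.5% of the variable exon bp in ESCs, 6.38% in brain, 2.92% in MEFs and 0.991% in liver. Divided by the percentage of the whole reference under peaks in the same library, which allows for the different sizes of the lists, this relative coverage was 6.45 in ESCs, 0.870 in brain, 0.373 in MEFs and 0.155 in liver. For the coding segments elsewhere it was 6.13 in ESCs, 5.12 in brain, 2.11 in MEFs and 4.42 in liver. Beta exons include untranslated sequence, and over the coding frames of the 40 exons alone the covered share in ESCs was 55.8%, beside 41.4% of the coding segments elsewhere. The variable exons thus had a larger share of bp under peaks than other coding segments in the ESC library, and a smaller one in brain, MEFs and liver. The brain value rested on 6 peaks and rose above 1 under stricter score thresholds, to 1.37 when peaks scoring under 80 were dropped from every list.

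With the fold rule (relative coverage different by at least 2-fold, an exon covered in only 1 library counted), 36 of the 38 variable exons covered in ESCs or MEFs were higher in ESCs and 0 lower, against 57.0% and 15.6% of the 2 to 3 kb exons outside the clusters. Against brain, 34 of 38 were higher in ESCs and 1 lower, with 34.0% and 22.7% of the other exons. Against liver, 37 of 38 were higher and 0 lower, with 37.3% and 25.5% of the others. Among the coding segments of that length, 66.1% were higher and 9.03% lower in ESCs than in MEFs. Their shares were 25.0% and 14.4% against brain, and 42.2% and 14.4% against liver. Counted as whole genes, 22 of 22 covered members were higher in ESCs than in MEFs, than in brain and than in liver, where the same was true of 47.2%, 33.4% and 35.4% of protein-coding genes. The remaining genes, Pcdhb8 and Pcdhb21, were covered in none of those 4 libraries. Of the 22 covered members 19 were single-exon beta genes, already counted above as exons. Spans of other genes are not a like background for them. These 3 comparisons share the ESC library.

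**Figure D2:**
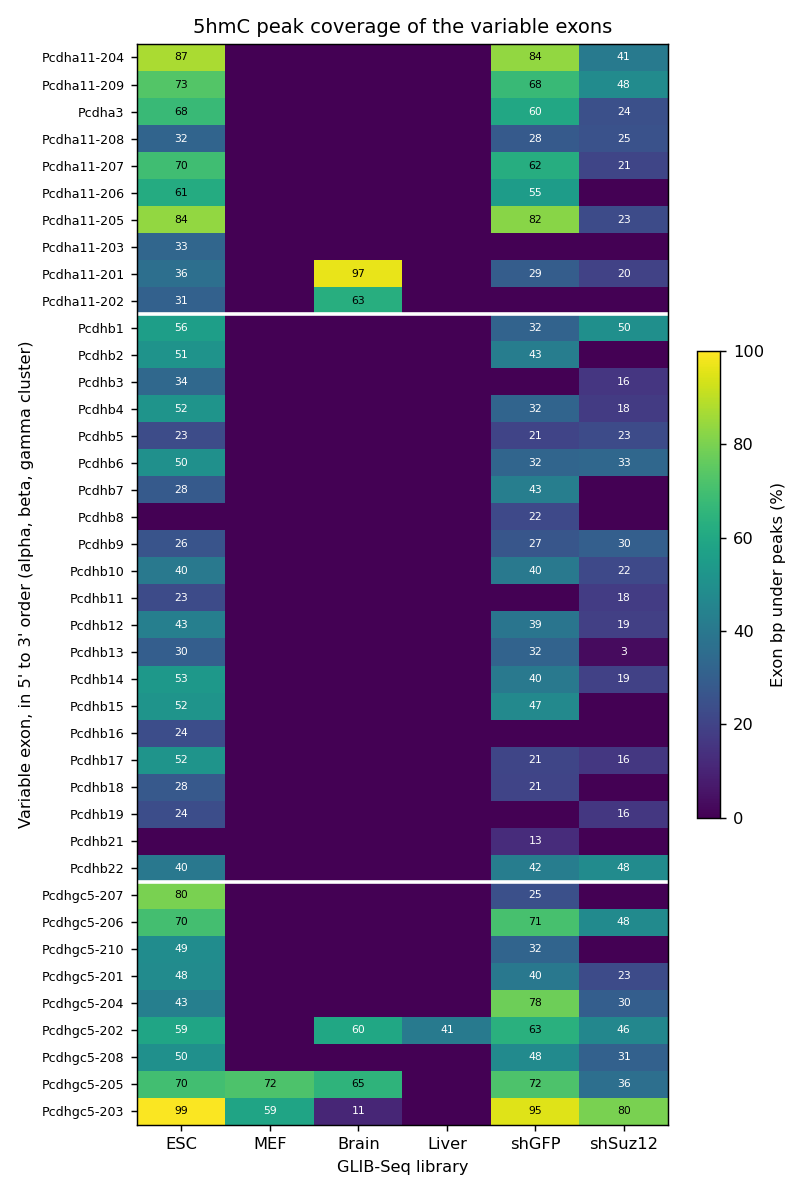
Percentage of each variable exon's bp under 5hmC peaks (colour and printed value; dark cells without a value are 0) for 40 exons in genomic order, with white lines between the clusters, in 6 libraries. The ESC column is filled except for Pcdhb8 and Pcdhb21, and the MEF, brain and liver columns are empty over the whole beta cluster and filled at 5 exons towards the 3′ ends of the alpha and gamma clusters.

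The beta cluster, which encodes single-exon protocadherins, was the most sharply divided. Not 1 peak of any score lay anywhere in its 256 kb in MEFs, brain or liver, although the MEF and brain lists reached down to a score of 30. In ESCs it held 21 peaks, of which 20 lay on variable exons and the other on Pcdhb20. That gene is not protein-coding in the annotation used here, but the RefSeq order of a later assembly lists it among the beta genes. In shGFP no bp between the member genes was under a peak. Outside the variable exons the cluster was covered over 0.621% of its bp in ESCs. The beta peaks in ESCs had scores from 109.8 to 862.56 and a median of 398. The lowest, on Pcdhb11, was above 22.2% of the ESC list, and the highest, on Pcdhb15, above 95.2%.

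Among beta genes in ESCs, Pcdhb4 had the most bp under peaks, 1924 bp or 51.7% of its exon (chr18:37467109-37470827). The values were 651 bp in shSuz12, 1195 bp in shGFP and 0 bp in brain, liver and MEFs. The strongest beta peak in ESCs, with a score of 862.56, lay on Pcdhb15 (chr18:37633200-37635994), which was covered over 1447 bp in ESCs, 0 bp in MEFs, brain and liver, 1318 bp in shGFP and 0 bp in shSuz12. Coverage across the 19 covered beta exons in ESCs ran from 22.7% in Pcdhb11 to 55.9% in Pcdhb1. Beta exons include untranslated sequence of varied length, up to 7131 bp in Pcdhb19, and over their coding parts alone peaks took up 48.6% in ESCs, 21.3% in shSuz12 and 33.9% in shGFP.

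Pcdhb8 and Pcdhb21, the genes without a peak in ESCs, each had a weak peak in shGFP, with scores of 55.2 and 53.9 that lie below the lowest score of the ESC list. They had none in shSuz12. Pcdhb16 was covered in ESCs alone, over 1247 bp with a score of 541. The same was true of Pcdha11-203 in the alpha cluster, over 789 bp with a score of 146.

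In the alpha cluster the ESC peaks were broad. Pcdha11-204, the 5′-most variable exon (chr18:37089939-37092326), was covered over 2087 bp (87.4%) in ESCs, 2002 bp in the control knockdown and 978 bp in the Suz12 knockdown, and over 0 bp in the differentiated cells. Pcdha11-209 held the strongest alpha peak in ESCs, with a score of 1090.64. Pcdha3, the alpha member annotated as a gene of its own, was covered over 1650 bp in ESCs, 589 bp in shSuz12 and 1457 bp in shGFP. The 8 exons at the 5′ side of the cluster had a peak in ESCs and in none of MEFs, brain and liver.

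The 2 variable exons nearest the alpha constant exons stood apart from these. Pcdha11-201 (chr18:37249790-37252225), 63.6 kb from the first constant exon, was covered over 888 bp in ESCs, 2354 bp (96.6%) in brain, 717 bp in shGFP, 478 bp in shSuz12 and 0 bp in MEFs and liver. It was the 1 exon with relative coverage at least 2-fold lower in ESCs than in brain. Pcdha11-202 (chr18:37303623-37306184), 9.63 kb from the first constant exon, was covered over 795 bp in ESCs and 1602 bp (62.5%) in brain and in no other library. The brain peaks had scores of 89.9 and 72.3, above 83.5% and 74.1% of the brain list, and the ESC peaks had scores of 348 and 160, above 77.4% and 44.5% of the ESC list. In the RefSeq gene order of a later assembly, the last alpha variable exons are the C-type genes Pcdhac1 and Pcdhac2, whose promoters are known to be used more broadly than those of the other isoforms. The annotated transcripts were not matched to those names, and the gamma exons described below did not all follow such a pattern.

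The alpha constant exons, which encode the shared cytoplasmic tail, carried peaks in brain alone. There the second was covered over its whole 89 bp (score 69.8) and the third over 32.3% (score 39.6).

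The gamma cluster had the largest share of its span under peaks in each of the 6 libraries. Peaks covered 27.9% of its span in ESCs, 9.76% in brain, 6.81% in MEFs, 3.73% in liver, 21.3% in shGFP and 10.1% in shSuz12. For the alpha cluster the corresponding values were 8.47%, 2.74%, 1.39%, 0%, 7.35% and 3.26%. Pcdhgc5-203 (chr18:37979200-37981788), the variable exon nearest the gamma constant exons, was covered over 2572 bp (99.3%) in ESCs with the highest score of any variable exon peak, 1549.83. In the other libraries it was covered over 2459 bp (shGFP), 2066 bp (shSuz12), 1516 bp (MEFs), 279 bp (brain) and 0 bp (liver).

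Gamma exons also supplied every variable exon peak seen in MEFs and liver. Pcdhgc5-205 (chr18:37974733-37977637), which lies 7.04 kb from the constant exons, had 2092 bp under peaks in shGFP, 2090 bp (71.9%) in MEFs, 2031 bp in ESCs, 1888 bp (65.0%) in brain, 1056 bp in shSuz12 and 0 bp in liver. Apart from liver and shSuz12 these values are close, and the MEF peak had a score of 306, the highest on any variable exon in the 3 differentiated libraries. Pcdhgc5-202 (chr18:37925234-37928194) was the single variable exon with a peak in liver, over 1225 bp (41.4%) with a score of 278, beside 1735 bp in ESCs, 1764 bp in brain, 0 bp in MEFs, 1879 bp in shGFP and 1374 bp in shSuz12. It overlaps an exon on the opposite strand of the long noncoding gene Gm16882, as does Pcdhgc5-204, and peaks do not tell the strands apart. Pcdhgc5-208 (chr18:37966064-37968631), which lies between those exons, had 1294 bp under peaks in ESCs. It had 797 bp in shSuz12, 1228 bp in shGFP and 0 bp in MEFs, brain and liver. The exons with peaks in differentiated cells were thus not an unbroken run. The RefSeq order ends the gamma cluster with the C-type genes Pcdhgc3, Pcdhgc4 and Pcdhgc5. By that order Pcdhgc5-205 and Pcdhgc5-208 would hold C-type positions, and Pcdhgc5-202 would not. C-type position therefore did not separate gamma exons with and without peaks in differentiated cells. These transcripts were not matched to the RefSeq names either.

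**Figure D3:**
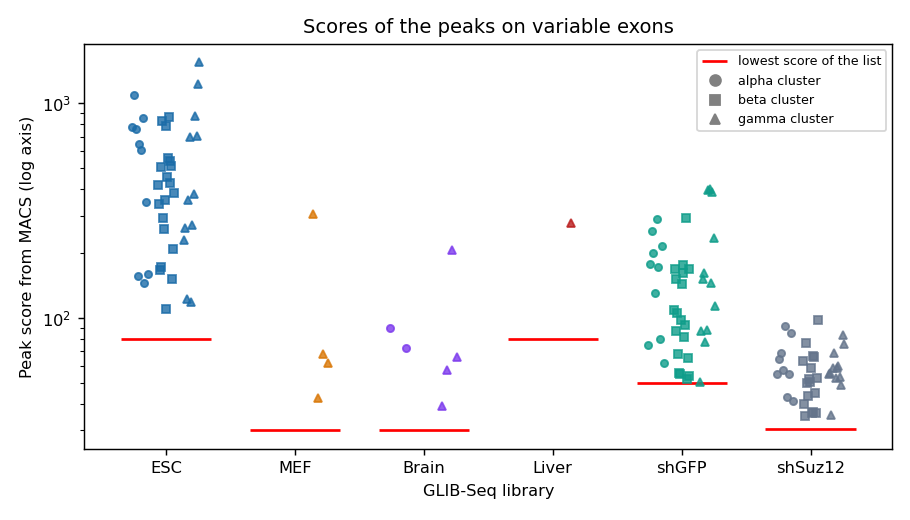
MACS score (log axis) of every peak that touches a variable exon, by library, with marker shape for the cluster and a red line at the lowest score of the deposited list. The ESC peaks all lie between 109.8 and 1549.83, above the end of their list at 80, and the shSuz12 peaks all lie at or below 97.81.

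Peaks lay inside the variable exons, and seldom at their starts. The midpoints of the 42 peaks on variable exons in ESCs were at a median of 1576 bp from the annotated coding start, and 35 of the 42 lay more than 1 kb into the exon. The medians were 1574 bp for 41 peaks in shGFP and 1444 bp for 38 peaks in shSuz12. The first base of the exon lay under a peak in 0 of 40 exons in ESCs, MEFs and liver, 1 in brain and shGFP and 2 in shSuz12. In ESCs, coverage in bins of 250 bp rose from 4.43% in the first bin after the coding start to 80.5% between 1750 and 2000 bp, and it was down to 13.0% between 2500 and 2750 bp, near the end of the coding sequence. Each of the 3 clusters had this shape in ESCs and in shGFP.

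A window of 1 kb on each side of the exon start overlapped a peak for 23 of 40 exons in ESCs, 17 in shGFP, 14 in shSuz12, 3 in brain, 3 in MEFs and 0 in liver. Over the other protein-coding start sites the shares were 31.9%, 27.1%, 21.4%, 20.0%, 30.1% and 29.4% in the same order. Most of the ESC overlaps came from peaks in the exon: with 500 bp on each side the count was 9, and with 2 kb it was 38.

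**Figure D4:**
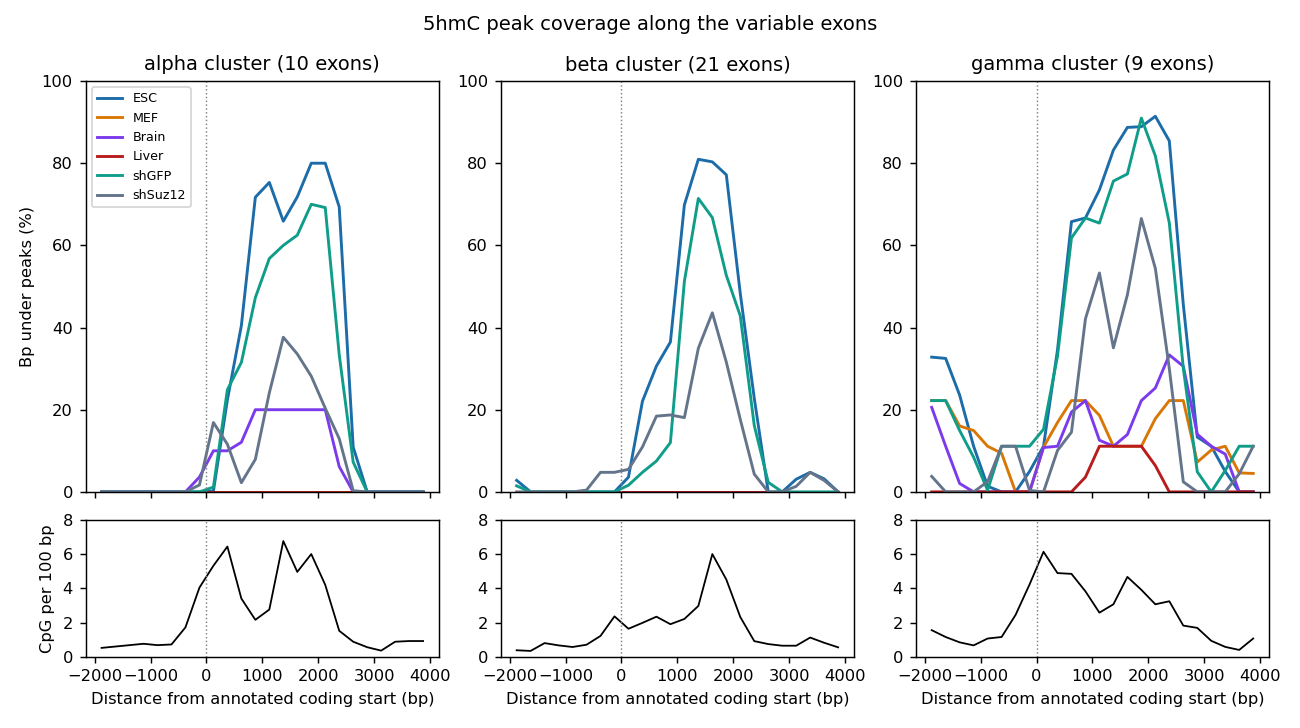
Upper panels: percentage of bp under 5hmC peaks in bins of 250 bp against the distance from the annotated coding start, for the exons of each cluster and the 6 libraries. Lower panels: CpG dinucleotides per 100 bp in the same bins. In ESCs and shGFP coverage is low at the coding start and highest between about 1000 and 2500 bp in each cluster.

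Variable exons are rich in CpG, the dinucleotide at which most mammalian cytosine methylation occurs. Their median was 2.74 CpG per 100 bp (4.68 in alpha, 2.24 in beta, 3.82 in gamma), against 1.35 in the 2 to 3 kb exons elsewhere, and the median GC content was 50.7% against 45.8%. Those other exons include untranslated ones. CpG was not counted in the coding segments elsewhere, so a comparison of coding sequence alone was not made. Across the 40 exons, the percentage covered in ESCs went with CpG density (Pearson r = 0.49, Spearman rho = 0.62). The correlation was r = 0.50 in shGFP and r = 0.27 in shSuz12. Over the coding frames alone, without the untranslated part of the beta exons, the ESC values were lower (r = 0.26, rho = 0.36). These coefficients are descriptions over exons that share a library, a sequence family and a cluster, and the alpha and gamma exons had both more CpG and more coverage than the beta exons. Within the exon the profiles differed, because in the alpha and gamma clusters CpG density was also high at the coding start, where there was little coverage.

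Near-identical members can lose reads when only unique matches are kept. A median of 89.2% of the 32-mers of a variable exon occurred once in the reference (range 74.2% to 100%), and this share had almost no relation to ESC coverage (r = 0.06). Pcdhb8 had the lowest share, 74.2%, and Pcdhb21, the other exon without an ESC peak, had 94.8%. The variable exons with a peak in MEFs, brain or liver all had high shares. These were 100% in Pcdha11-201, Pcdha11-202, Pcdhgc5-203 and Pcdhgc5-205, and 99.7% in Pcdhgc5-202. Pcdhb1 and Pcdhgc5-208 also had 100%, without a peak in those libraries. Whether the share bears on coverage in MEFs, brain and liver was not tested. The read length is unknown and mapping allowed mismatches, so the shares are a guide only.

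The annotation lacks some first exons of the alpha and gamma clusters, and open reading frames of at least 2 kb were therefore read from the plus strand of the 3 clusters. Of 58 such frames 40 were the member exons. In the beta cluster 2 had almost no unique 32-mers and no peak in any library. The 16 others were 4 in the alpha cluster, 11 in the gamma cluster and 1 in the beta cluster. That 1 is annotated as Pcdhb20, though not as a protein-coding gene. Of the 16 others, 16 carried a peak in ESCs, 14 in shGFP, 9 in shSuz12, 2 in brain, 0 in liver and 0 in MEFs. Over member exons and these frames together, 54 of 56 carried a peak in ESCs, 48 in shGFP, 37 in shSuz12, 7 in brain, 2 in MEFs and 1 in liver. Of the 16 others, 2 overlap exons of Gm16882, a long noncoding gene on the opposite strand. The additional frames were thus covered mostly in the ESC libraries, like the annotated exons.

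In the control knockdown library, as in the untreated ESCs, most variable exons carried a peak. In shGFP cells 34 of the 40 variable exons carried a peak (95% interval 70.2 to 94.3%), of which 32 also did in ESCs. These 32 are 84.2% of the ESC exons and 94.1% of the shGFP exons. With 38 of the 40 exons covered in ESCs, 32 is the lowest overlap that the counts allow. The overlap therefore does not measure how alike the libraries are. Relative coverage of the variable exons was 7.56, beside 6.45 in ESCs. For the coding segments elsewhere it was 6.56 in shGFP and 6.13 in ESCs. Scores tended to be lower, with a median of 131 for peaks on variable exons in shGFP and 398 in ESCs. The whole lists differed too: 56.0% of all shGFP peaks scored at least 80, the score at which the ESC list ends.

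In the Suz12 knockdown 28 of the 40 exons carried a peak (95% interval 53.5 to 83.4%). All 28 also did in ESCs, where 38 of the 40 exons had a peak and little else was possible. Variable exon bp under peaks numbered 42630 in shGFP, and in shSuz12 there were 23528, a ratio of 0.552. All peaks of the library shrank too, to a ratio of 0.689 in total bp, so that relative to the library the ratio was 0.801. The alpha exons had the lowest ratio, 0.430 (11313 to 4867 bp), followed by gamma with 0.564 (14028 to 7910 bp) and beta with 0.622 (17289 to 10751 bp). When both lists were limited to scores of at least 50.02, where the shGFP list ends, 34 exons carried a peak in shGFP and 19 in shSuz12. The ratio was then 0.391 for variable exon bp and 0.416 for all bp, or 0.940 relative to the library. This limit was chosen after seeing the data, and with stricter ones the relative ratio was lower, 0.674 for the upper 50% of scores in both lists and 0.338 for scores of at least 80. The fall in variable exon bp was thus larger than that of the library by an amount that depended on the threshold. With all peaks, relative coverage in shSuz12 was 6.05 for the variable exons and 7.02 for the coding segments elsewhere. Over the coding frames of the 40 exons, the covered share was 44.2% in shGFP and 24.2% in shSuz12. For the coding segments elsewhere it was 29.9% and 22.1%.

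By the fold rule 12 of the 37 variable exons covered in either library were lower in shSuz12 and 4 were higher. Among the 2 to 3 kb exons elsewhere 29.4% were lower and 25.1% higher. Among the coding segments of that length 20.7% were lower and 17.3% higher. The share of members that were lower was 32.4%, near the first of these backgrounds and above the second, and the share that were higher, 10.8%, was below both. As genes, 7 of 23 members were lower and 4 higher, beside 16.8% and 17.8% of protein-coding genes. All 7 and all 4 were beta genes, whose single exons are already in the counts above. Spans of other genes are not a like background for them.

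The direction differed among exons. In shSuz12, fewer bp were covered in 29 exons and more in 8, all of the latter beta genes, and 3 had equal bp. Peaks on 9 exons of shGFP had no counterpart in shSuz12: Pcdha11-206, Pcdhb2, Pcdhb7, Pcdhb8, Pcdhb15, Pcdhb18, Pcdhb21, Pcdhgc5-207 and Pcdhgc5-210. Peaks on Pcdhb3, Pcdhb11 and Pcdhb19 were seen in shSuz12 and not in shGFP, and all of these exons had an ESC peak. The bp here are not scaled to the library, whose total bp fell to a ratio of 0.689. Falls, rises and lost or gained peaks were not counted over other exons, so these counts have no background share.

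The largest falls in the alpha cluster were those of Pcdha11-205, from 1969 to 546 bp, Pcdha11-206, from 1320 to 0 bp, and Pcdha11-207, from 1549 to 523 bp. In the beta cluster they were those of Pcdhb7 (1506 to 0 bp), Pcdhb15 (1318 to 0 bp) and Pcdhb2 (1180 to 0 bp), and in the gamma cluster those of Pcdhgc5-204 (2019 to 778 bp), Pcdhgc5-205 (2092 to 1056 bp) and Pcdhgc5-210 (839 to 0 bp). Among the rises, Pcdhb19 went from 0 to 1149 bp, Pcdhb11 from 0 to 637 bp and Pcdhb3 from 0 to 604 bp. The shSuz12 peaks on Pcdhb19 (scores of 44.6 and 36.1) and Pcdhb3 (34.9) lie below the score at which the shGFP list ends, so peaks of that score could not appear in the control, and the Pcdhb11 peak scored 58.7. Pcdhb22 carried the strongest shSuz12 peak of all the variable exons, with a score of 97.8, above 90.8% of the shSuz12 list. Pcdhb22 was covered over 1481 bp in that library and 1295 bp in the control. These are single pairs of libraries, with no measure of the spread between replicates.

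**Figure D5:**
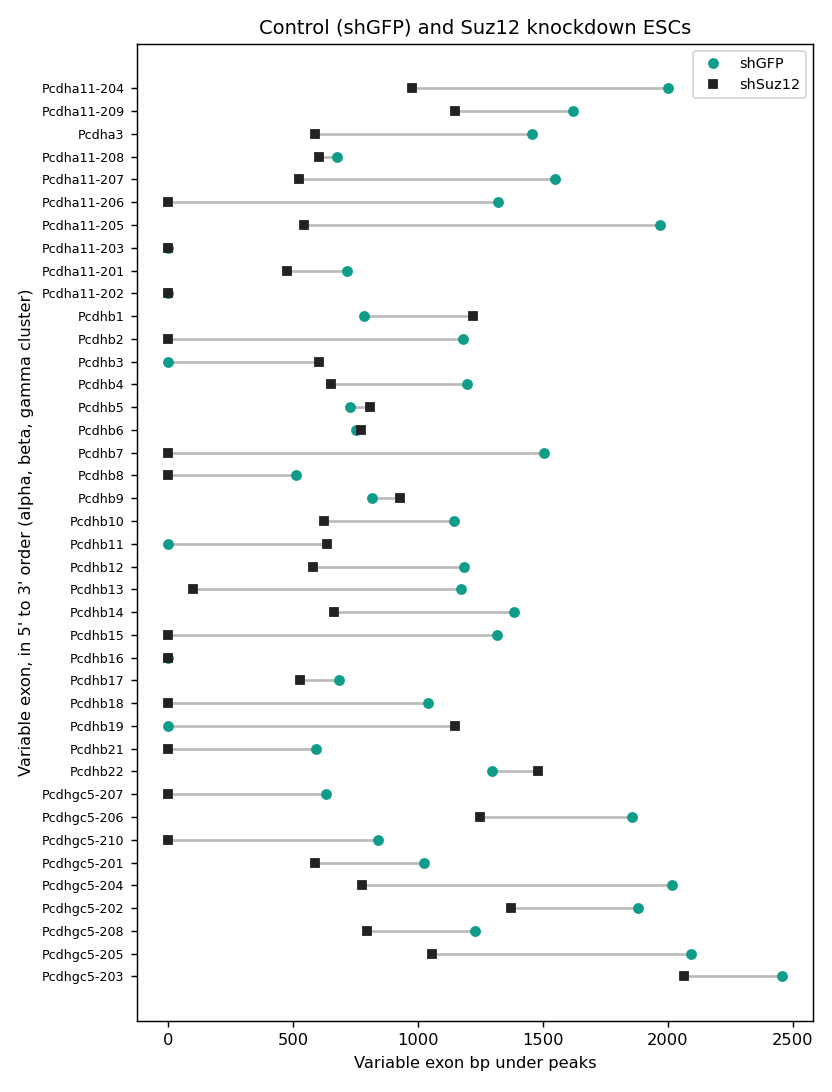
Bp under 5hmC peaks on each of the 40 variable exons, in genomic order, in control ESCs (shGFP, green circles) and Suz12 knockdown ESCs (shSuz12, black squares), joined by a line. The square lies to the left of the circle in 29 exons and to the right in 8, all in the beta cluster. The bp are not scaled to the library, whose total bp under peaks was lower in shSuz12.

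Outside the variable exons and open reading frames, 12 peaks lay in the gamma cluster in ESCs, 9 in MEFs, 7 in shGFP, 6 in brain, 5 in liver and 5 in shSuz12, and none lay in the beta cluster in any library. In the alpha cluster there were 4 such peaks in MEFs, 3 in brain, 3 in shGFP, 3 in shSuz12, and 0 in ESCs and liver. The third gamma constant exon, which holds the end of the shared coding sequence, was covered over 75.1% in liver, 29.3% in shGFP, 25.3% in MEFs, 25.1% in ESCs, 21.9% in brain and 0% in shSuz12. The strongest liver peak in the clusters, with a score of 646, lay there and ran past the 3′ end of the cluster. In liver, therefore, all but 1 of the 6 gamma peaks lay at the constant exons or between them.

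Whole spans of other genes were counted in the same way, and over all protein-coding genes outside the clusters the share with a peak was 67.7% in ESCs, 63.3% in shGFP, 63.0% in shSuz12, 61.1% in MEFs, 60.7% in brain and 58.0% in liver. Of 18 protein-coding genes that lie between the first and the last member or within 200 kb of them, 14 carried a peak in liver, 12 in ESCs, 10 in brain, 10 in shGFP, 10 in shSuz12 and 8 in MEFs. Among these the mitochondrial carrier gene Slc25a2 and the transcription factor gene Taf7, both between the beta and gamma clusters, carried peaks in liver. Gm10545 lies on the opposite strand among the alpha exons, and its peaks cannot be told apart from theirs.

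The 12 non-clustered protocadherins, single genes elsewhere in the genome that encode related adhesion proteins, were counted likewise. Peaks lay on 10 of them in MEFs, 9 in brain, 9 in shGFP, 9 in shSuz12, 7 in ESCs and 3 in liver. The ESC count is near the share over all genes, the liver count is below its share and the MEF count above. Spans of genes are not comparable with single exons. On the longest coding exon of each, peaks lay in ESCs on Pcdh1, Pcdh7, Pcdh8, Pcdh12, Pcdh15 and Pcdh20. In MEFs they lay on Pcdh1, Pcdh7, Pcdh8, Pcdh9, Pcdh17 and Pcdh18. In brain they lay on Pcdh1, Pcdh12, Pcdh15, Pcdh18 and Pcdh20, and in liver on Pcdh1 and Pcdh12. Pcdh1 was covered over 52.4% of its span in ESCs and 62.0% in liver. Of 15 genes for factors that act on the clusters, among them the boundary factor Ctcf, cohesin subunits and DNA methyltransferases, 14 carried a peak in liver, 13 in ESCs and 12 in each of the other 4 libraries. Over all protein-coding genes outside the clusters the share was 58.0% in liver and 67.7% in ESCs, and between these in the other 4. The maintenance methyltransferase gene Dnmt1 was covered over 68.4% of its span in ESCs and 13.1% to 24.3% in MEFs, brain and liver, whereas the de novo methyltransferase gene Dnmt3a was covered over 34.0% in ESCs and 66.3% in liver.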

How the data were processed

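Per the methods and the submitters' processing notes, the authors mapped GLIB-Seq reads to mm9 with Bowtie 0.12.7, keeping unique hits with up to 2 mismatches, collapsed redundant reads and called peaks library by library with MACS 1.4.1 after base calling with CASAVA 1.8. The authors deposited a MACS score with every peak. Thresholds and controls of the lists are not given in the sources used here, and a threshold moves the number and width of peaks. The lists give no counts, so depth is unknown. RNA-Seq libraries were not analysed here.

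Peaks were intersected with the NCBIM37 (mm9) GENCODE M1 annotation with pandas 2.3.3 and numpy 2.4.6 under Python 3.11.15. Intervals came from scipy 1.17.1 and figures from matplotlib 3.10.9. Variable exons were first exons of member transcripts, of at least 500 bp, overlapping ones reduced to the transcript with the longest coding sequence. They were defined per transcript because the annotation merges alpha and gamma genes, in which the C-type symbols other than Pcdhgc5 were not found. Reference sequences gave CpG, exact 32-mer and open reading frame counts, and RefSeq gene order came from GRCm38.p6. Named exons are those with the most bp or the highest score in a cluster and library, the 3 with the largest falls or rises in shSuz12, C-type members, and those covered in all or no libraries; exons that stand apart in the differentiated cells, or are covered in 1 library, were named after their values were seen, and coding segments, open reading frames and 32-mers were added then too. Members and lists were chosen with earlier results of these data known. The scripts were tested on simulated data. Alternatives were 3 peak selections, the longest exon of each gene, at least 50% overlap, other windows around the exon start and, chosen after seeing the data, the lowest shGFP score as a common threshold.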

Additional observations from a re-analysis of the deposited data

How the results depend on the processing

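No paired analysis was possible because there was a single library of every condition. Among 79 alternative values, 2 crossed from below to above the genome average: relative coverage of the variable exons in brain, 0.870, was 1.37 when peaks under a score of 80 were dropped and 1.20 with the 50% of peaks of highest score in each list. With peaks under 80 dropped, exons with a peak numbered 1 in MEFs, 2 in brain and 4 in shSuz12, relative coverage was 0.439 in MEFs, 9.13 in shGFP and 3.09 in shSuz12, and the shSuz12 to shGFP ratio was 0.338. With the 50% of highest score, 17 exons had a peak in shSuz12, relative coverage was 8.44 in ESCs, 0.505 in MEFs, 0.230 in liver, 9.27 in shGFP and 6.25 in shSuz12, and the ratio was 0.674. With equal numbers of peaks, relative coverage was 7.48 in ESCs, 0.447 in MEFs, 0.983 in brain, 7.55 in shGFP and 6.11 in shSuz12, and the ratio was 0.810. With the longest exon of each gene, it was 5.00 in ESCs, 0.448 in MEFs, 0.338 in brain, 0 in liver, 5.39 in shGFP and 4.95 in shSuz12, 0 exons had a peak in liver, and the ratio was 0.919. At the common score of shGFP, chosen after seeing the data, the ratio was 0.940. With at least 50% of the exon under peaks, 19 of the 40 exons counted in ESCs, 0 in liver, 11 in shGFP and 1 in shSuz12. Of the coding segments elsewhere, 41.0% in ESCs, 28.2% in liver, 29.5% in shGFP and 19.7% in shSuz12 had over 50% covered. In ESCs and shGFP the member counts were therefore near these shares, and in liver and shSuz12 below them. Beta exons include untranslated sequence, so the sets are not fully alike. Start windows of 500 bp held a peak for 9 exons in ESCs, 1 in MEFs, 1 in brain, 5 in shGFP and 7 in shSuz12, and windows of 2 kb for 38 in ESCs, 6 in brain, 1 in liver, 35 in shGFP and 28 in shSuz12.

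In each of the alternatives tried, more variable exons carried a peak in ESCs than in MEFs, brain or liver. The shSuz12 counts depended on the score threshold, since no shSuz12 peak on a variable exon scored above 97.8. Of the whole shSuz12 list, 17.0% of peaks scored at least 80. Without replicates and read counts, the spread between libraries of a condition is unknown, and a missing peak says only that none passed the threshold of its list.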

Other observations

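Between the clusters, where no member exon is annotated, 8 peaks lay in ESCs, 2 in MEFs, 1 in brain, 3 in liver, 4 in shGFP and 4 in shSuz12. The strongest in ESCs, chosen after its value was seen, was 2281 bp wide (chr18:37828890-37831170) with a score of 1187, and it lies upstream of the 5′-most gamma exon. Weaker peaks overlapped it in shGFP (score 109) and in shSuz12 (score 69.8), and none did in MEFs, brain or liver. The annotation has no gene there, and this stretch was outside the search for open reading frames.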
